A study of Mus musculus with 16 samples.

Results

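Esm1, Plvap, Mcam, Cxcr4, Unc5b, Robo4, Nid2, Pdgfb and Adm are genes known from endothelial tip cells and angiogenesis, and they are described here in endothelial cells (EC) of the mouse lung. The 9 genes were listed by name, and all 9 were found among the 28692 genes of the deposited single-cell table. The cells came from female C57BL/6N mice at 4 stages: wild-type mice (d0), mice carrying a primary tumour (d15), mice after its resection (d22) and mice with metastases (d36). The tumour was grown under the skin from the mouse tumour line Lewis lung carcinoma, and lung EC were sorted by flow cytometry. The labels name 4 libraries for each day, 16 in all, but a cell's name in the table carries only its day. Each day was therefore 1 pooled sample. The spread between mice or libraries is unknown, no difference between days could be tested, and every interval below covers counting error only.

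Tip cells lead a growing vessel sprout: they extend filopodia, answer vascular endothelial growth factor (VEGF) and hold their neighbours back through the Notch ligand Dll4. Esm1 is a secreted proteoglycan and a widely used tip cell marker. It is also made by cells that move from sprouts into arteries, which share Notch target genes such as Hey1 and the connexin Gja5 with the arterial wall. In the lung, general capillary cells and aerocytes line the alveoli. Aerocytes are large gas-exchange cells, and they make apelin (Apln) and the VEGF receptor Kdr, both of which are called tip cell genes in other tissues. Whether Esm1 marked tip-like or arterial cells was thus asked against both gene sets.

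After filters on cells, 8773 EC remained of 9036 deposited cells: 2605, 1462, 3167 and 1539 from d0 to d36. The median cell held between 3511 and 7684 unique molecular identifiers (UMIs, tags that mark single captured RNA molecules), with d15 and d36 the shallower days. Levels are given as CPM, the UMIs of a gene summed over the cells of a day or class and scaled to a common total of UMIs. Of the non-zero deposited values 45.11 to 54.81%, by day, were exactly 4 and 56.5 to 66.49% were multiples of 4, against 25% with no such structure. The cause was not tested, and all 95% intervals were computed from the counts divided by 4. The 6 pan-endothelial markers summed to between 9780 and 11300 CPM by day and the leukocyte markers to at most 1.36 CPM. Mural cell markers summed to 24.9, 19.1, 32.9 and 59.3 CPM from d0 to d36, with Cspg4 at 0. Epithelial markers summed to 83.4, 58.7, 142 and 132 CPM, and the part of either in the day values below was not tested. In these sums fewer cells of a type and less RNA per cell cannot be told apart, so the vessel classes are given as well. A gene counted as measured in a comparison at 50 CPM or more in either group and 200 UMIs or more over both. It counted as changed at a ratio of 1.5 or more in either direction with an interval that left out 1.

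Esm1 lies on chromosome 13 (GRCm38, 113209659 to 113218098, plus strand) and overlaps Gzmk on the other strand. Cxcr4, the receptor for the chemokine Cxcl12, lies on chromosome 1 (128588199 to 128592293, minus strand). The 250 bases before the RefSeq starts of these 2 genes (GRCm38.p6) are shown because their UMIs met in the same cells. Capitals mark GGAA or its complement TTCC, the core of the binding motif of ETS factors, a family active in endothelium:
Esm1, chr13:113209409-113209658, plus strand: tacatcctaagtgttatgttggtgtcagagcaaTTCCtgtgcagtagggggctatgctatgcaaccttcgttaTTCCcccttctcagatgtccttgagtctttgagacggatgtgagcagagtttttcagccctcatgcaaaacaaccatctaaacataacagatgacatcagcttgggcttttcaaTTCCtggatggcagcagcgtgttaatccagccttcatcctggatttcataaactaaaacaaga
Cxcr4, chr1:128592300-128592549, minus strand: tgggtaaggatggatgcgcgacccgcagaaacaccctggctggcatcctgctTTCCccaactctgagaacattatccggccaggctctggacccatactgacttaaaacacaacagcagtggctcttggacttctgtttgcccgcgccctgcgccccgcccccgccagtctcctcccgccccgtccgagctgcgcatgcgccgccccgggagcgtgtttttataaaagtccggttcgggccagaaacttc
The Esm1 window held 3 matches and the Cxcr4 window held 1. The core is common: 93.4% of 32851 promoter windows of this length held it on either strand. TGGGAA, the motif of the Notch effector RBPJ, which contains the ETS core, was found in 21.6% of windows and had 0 matches in both. RefSeq windows were matched for 6 of the 9 genes, and Plvap, Nid2 and Pdgfb were not among them. In GRCm38, Plvap lies on chromosome 8 (71497765 to 71511752, minus strand), Mcam on 9 (44134469 to 44142727, plus) and Unc5b on 10 (60762593 to 60831581, minus). Robo4 lies on 9 (37401897 to 37415115, plus), Nid2 on 14 (19751265 to 19811787, plus), Pdgfb on 15 (79995874 to 80014977, minus) and Adm on 7 (110627661 to 110629820, plus). On the opposite strand Plvap overlaps Gtpbp3, Nid2 overlaps Rtraf, and Mcam, Pdgfb and Adm overlap predicted genes. On its own strand Unc5b overlaps a predicted gene and Pdgfb a microRNA gene. Whether the counting used strand is not given in the sources used here, so reads of overlapping genes cannot be told apart with certainty.

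Of the 9 genes, Esm1 was the only measured gene that counted as higher than at d0. Its level was 30.5 CPM in wild-type mice (95% interval 26.2 to 35.4) and 66.8 CPM with the primary tumour (54.95 to 80.02). After resection it was 60.2 CPM (54.5 to 66.2) and with metastases 46.5 CPM (36.8 to 58.3). The d0 interval lay below those of the 3 later days, and the intervals of neighbouring later days overlapped. The ratio to d0 was 2.19 at d15 (1.71 to 2.78) and 1.97 at d22 (1.65 to 2.37). With d0 under 50 CPM, the gene was measured there through its later days alone. At d36 the ratio was 1.53 (1.15 to 2.01), but with both days under 50 CPM the gene was not counted as measured. Esm1 UMIs were found in few cells, 119, 55, 202 and 52 from d0 to d36. The 5 cells with the most Esm1 UMIs held 26.5, 46.4, 20.9 and 32.9% of the day's UMIs, and without them the ratios to d0 were 1.60 at d15, 2.13 at d22 and 1.39 at d36. With the vessel classes weighted to their d0 shares the d15 ratio was 1.20.

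Mcam, an adhesion molecule of endothelium and mural cells, stood at 119.8, 171.6, 110.5 and 128.5 CPM. Its d15 ratio of 1.43 (1.25 to 1.65) was under 1.5, and from d15 to d22 it fell to a ratio of 0.644 (0.561 to 0.738). Over 8 other choices of scaling, depth, cells and class weights the ratio lay between 0.639 and 0.745, and in 5 of them it was not past the size rule. Plvap, the diaphragm protein of fenestrae and caveolae, was at 2693, 3107, 2922 and 2764 CPM, with ratios to d0 between 1.03 and 1.15. Robo4, an endothelial receptor that steadies vessel junctions, was at 108.2 and 110.7 CPM at d0 and d15 and at 82.0 and 78.6 at d22 and d36. Both later intervals left out 1, at ratios of 0.758 (0.675 to 0.851) and 0.726 (0.597 to 0.880), but neither passed 1.5 in size. Pdgfb, the growth factor with which endothelium recruits pericytes, moved between 52.3 and 65.9 CPM.

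The other 4 genes were too low to be counted as measured at any day. Unc5b, a netrin receptor that restrains filopodia, was at 16.4, 17.7, 14.2 and 6.51 CPM. Cxcr4 was at 6.53, 6.57, 6.79 and 3.48 CPM, from 56, 14, 76 and 8 cells. Nid2, a basement membrane nidogen, had 25, 17, 9 and 1 UMIs. Adm, the vasoactive peptide adrenomedullin, stood at 7.98, 8.18, 10.8 and 20.9 CPM. The d36 value of Adm was 2.62 times that at d0 (1.59 to 4.06), from 20 cells, and 1.12 times without the 5 top cells of each day.

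**Figure D1:**
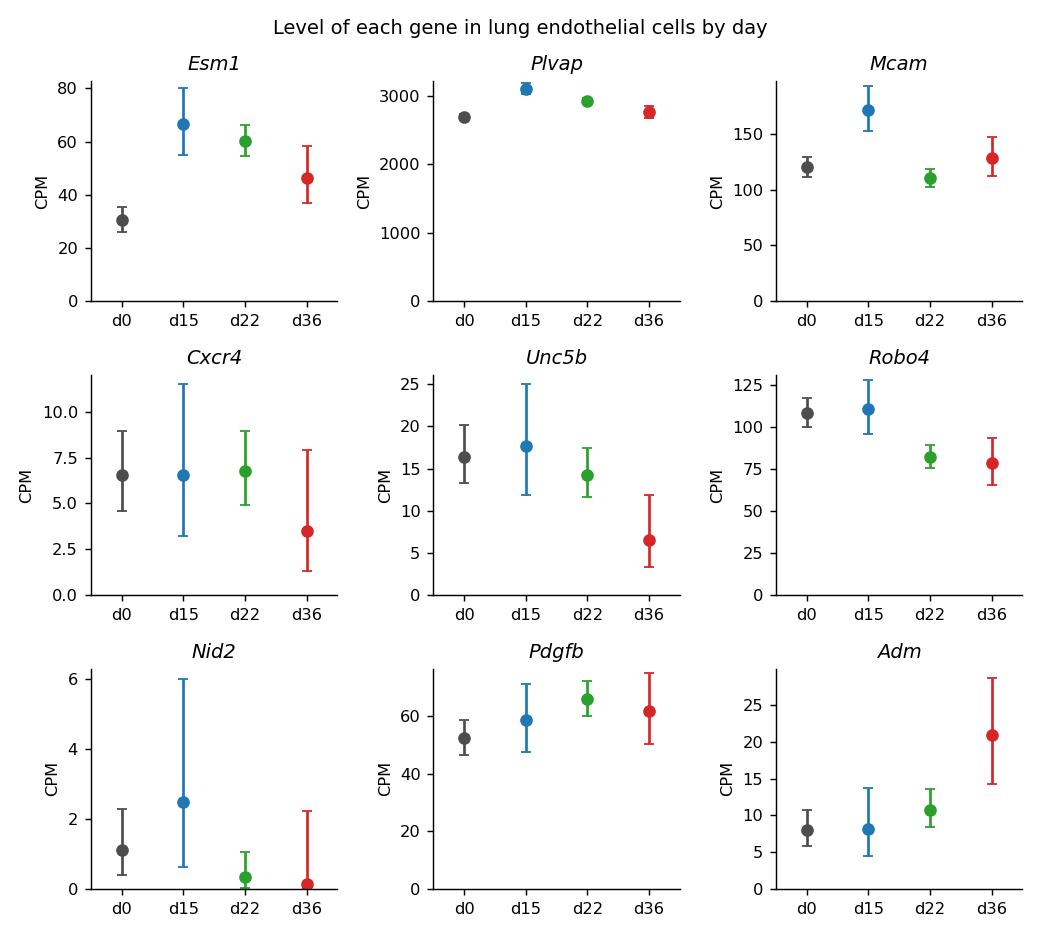
Level of each of the 9 genes (CPM, each panel with its own axis from 0) in EC of each day, 1 pooled sample a day; bars are 95% counting intervals. Esm1 at d0 (30.5 CPM) lies below the later days, while Plvap stays between 2693 and 3107 CPM.

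Of the 9 genes, 5 were measured at d15 against d0 and 1 changed, Esm1, where 6.45% of 3708 genes measured changed in either direction. At d22 against d0 it was again Esm1, 1 of 5, where 1.97% of 3560 genes changed. At d36 against d0 it was 0 of 4, where 7.61% of 3651 genes changed. From d15 to d36, 0 of 5 changed (all genes 2.16%), and from d15 to d22, 1 of 5, Mcam (all genes 7.50%). With 4 or 5 genes measured, nothing is read from these shares. The median log2 ratio of the measured members to d0 was 0.21, 0.12 and 0.07 at the 3 later days, and that of all genes 0.01, 0.01 and -0.03.

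In the wider set of 28 other tip cell genes, no measured gene counted as higher than at d0. At d15, 3 of 17 measured fell, where 4.13% of all genes measured rose and 2.32% fell. At d22, 0 of 17 fell (all genes 0.253% rose and 1.71% fell), and at d36, 5 of 17 fell (all genes 4.35% rose and 3.26% fell). With 17 genes, 0 that rose is near the share of all genes and nothing is read from it. The medians were -0.12, -0.03 and -0.09 on the log2 scale. Apln fell from 121.6 CPM at d0 to 65.0 at d15, stood at 120.1 at d22 and was at 57.7 at d36, with ratios to d0 of 0.535 and 0.474 at d15 and d36. Its receptor Aplnr fell to 0.628 at d15 and 0.389 at d36, and Fscn1, a filopodial actin bundler, to 0.619 and 0.639. Cd34 (0.618) and the VEGF co-receptor Nrp1 (0.623) fell at d36 as well. None of the d22 ratios passed the size rule, the lowest among the measured genes being Aplnr at 0.703, Fscn1 at 0.731 and Nrp1 at 0.838. Among the measured genes, the highest ratios at d15 were those of Vegfa (1.42), Dll4 (1.25) and the cell cycle regulator Rgcc (1.20). At d22 they were Rgcc (1.35), Vegfa (1.17) and Dll4 (1.05), and at d36 Vegfa (1.40), Rgcc (1.18) and Pxdn (1.16), none of which passed. Dll4 ranged from 154.5 to 192.2 CPM and Kdr from 314.7 to 392.8. Angpt2, a Tie2 ligand stored by endothelium, ranged from 26.6 to 44.6 CPM and was not measured.

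Ligands and receptors listed as partners of the 9 genes were mostly low, and 5, 4 and 4 of the 21 were measured against d0 at d15, d22 and d36. The changes numbered 0, 0 and 1, where 6.45, 1.97 and 7.61% of all genes changed, and nothing is read from so few. Ackr3, the scavenger receptor for Cxcl12, fell from 86.3 CPM at d0 to 39.5 at d36 (ratio 0.458). Cxcl12 itself was at 301 CPM at d0 and between 390.8 and 409.6 later, at ratios of 1.299 to 1.361. The adrenomedullin receptor Calcrl was at 788.1, 1010, 763.6 and 1071 CPM and its co-receptor Ramp2 at 3293 to 4223 CPM. Ramp3 lay between 38.0 and 49.4 CPM and Ramp1 had UMIs at d0 only, at 0.0438 CPM. Of the netrins, Ntn1 was at 39.0 to 55.5 CPM and Ntn4 at 8.02 to 16.95, and the other Unc5b ligands Flrt2 and Flrt3 stayed under 5 CPM. Slit2 and Slit3, listed here as partners of Robo4, stood at most at 2.48 and 5.11 CPM, and Robo1 and Robo2 had no UMI at any day. The PDGF receptors, which belong to mural cells and fibroblasts, were low: Pdgfrb reached 4.24 CPM at d36 and Pdgfra 0.328 at d22. The basement membrane partners of Nid2 gave 34.3 to 41.0 CPM for Nid1, 12.0 to 17.4 for Lamc1 and 2.19 to 6.28 for Hspg2. Itgal and Itgb2, the leukocyte integrin chains that Esm1 binds, were at most at 0.6 CPM.

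Vessel classes were built from clusters made without the 9 genes, the tip cell list or the partner list, so that none of these genes shaped them. Of 20 clusters in all, those that matched marker lists were called arterial-like (239 cells), general capillary-like (5319), aerocyte-like (1408), venous-like (349), lymphatic-like (57), proliferating (50) and systemic-type capillary-like (48, led by Fabp4 and its list), and they carry these names without the suffix below. A group of 394 cells with little Malat1, a nuclear RNA, was kept apart. One cluster of 909 cells stayed unnamed. It was led by Hey1, Ivns1abp and Sparcl1, and its 10 leading genes held 3 arterial markers (Hey1, Efnb2 and Edn1) and 1 general capillary marker (Lpl). Scored by the whole lists of the endothelial classes, however, it was nearest to general capillary cells (mean z-score of the list 0.78). The erythroid and platelet list scored higher in it (1.69), under the score of 2 asked for another cell type. That list summed to 22.4 CPM there, 15.2 in general capillary cells and 20.4 in aerocytes. With coarser clusters the unnamed cluster merged with general capillary cells. It lacked the wall genes of larger arteries: Mgp was at 18.1 CPM there and 3271 in arterial cells, Fbln5 at 3.45 and 774.2, and Htra1 at 0.822 and 264.4. Gja5 was at 24.99 CPM in this Hey1-led cluster, 260.1 in arterial and 3.90 in general capillary cells. Hey1 itself was at 564.3, 348.9 and 216.7 CPM in the same order. Arterial cells made up 2.84, 3.69, 2.46 and 2.14% of EC from d0 to d36, and Hey1-led cells 9.71, 12.4, 9.95 and 10.4%.

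Esm1 was highest in the Hey1-led, arterial and systemic-type capillary cells, the last through few cells, and near 0 in aerocytes. With the days pooled it stood at 420.0 CPM in systemic-type capillary cells (288.7 to 582.6), 263.4 in the Hey1-led cluster (237.9 to 290.2), 134.7 in arterial cells (103.7 to 173.3) and 29.9 in general capillary cells (26.4 to 33.8). In aerocytes it was at 2.91 CPM, and in venous, lymphatic and proliferating cells at 3.05 to 3.38. The first value came from 8 of 48 cells, and 2 of these held 89 of its 137 UMIs. Without those 2 cells it was at 151.5 CPM (78.3 to 264.7), below the Hey1-led cluster. Without the 5 top cells of each class, systemic-type capillary cells were at 36.3 CPM, Hey1-led cells at 206.4, arterial cells at 80.1 (56.9 to 112.5) and general capillary cells at 23.6 (20.4 to 27.0). With every cell kept, the first 2 intervals overlapped, as did those of the last 4 groups, and the steps between Hey1-led, arterial and general capillary cells were wider than the intervals. Against general capillary cells the ratio was 8.81 (7.49 to 10.3) in the Hey1-led cluster and 4.50 (3.37 to 5.98) in arterial cells. An Esm1 UMI was found in 151 of the 909 Hey1-led cells (16.6%), 33 of 239 arterial cells (13.8%), 193 of 5319 general capillary cells (3.63%) and 26 of 1408 aerocytes (1.85%), whose median cell was the deepest of these at 10565 UMIs. With each cell thinned to 600 molecules the same shares were 8.20, 6.09, 1.61 and 0.224%. The Hey1-led cluster held 51.5% of all Esm1 UMIs, general capillary cells 33.0% and arterial cells 7.95%. How these UMIs divided between arterial and Hey1-led cells moved with the clustering. Where every cell was named by its own markers, the arterial class held 37.6%, but it then had 1122 cells in place of 239. That naming also called 675 cells lymphatic, in place of 57, so its classes are not those described above.

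**Figure D2:**
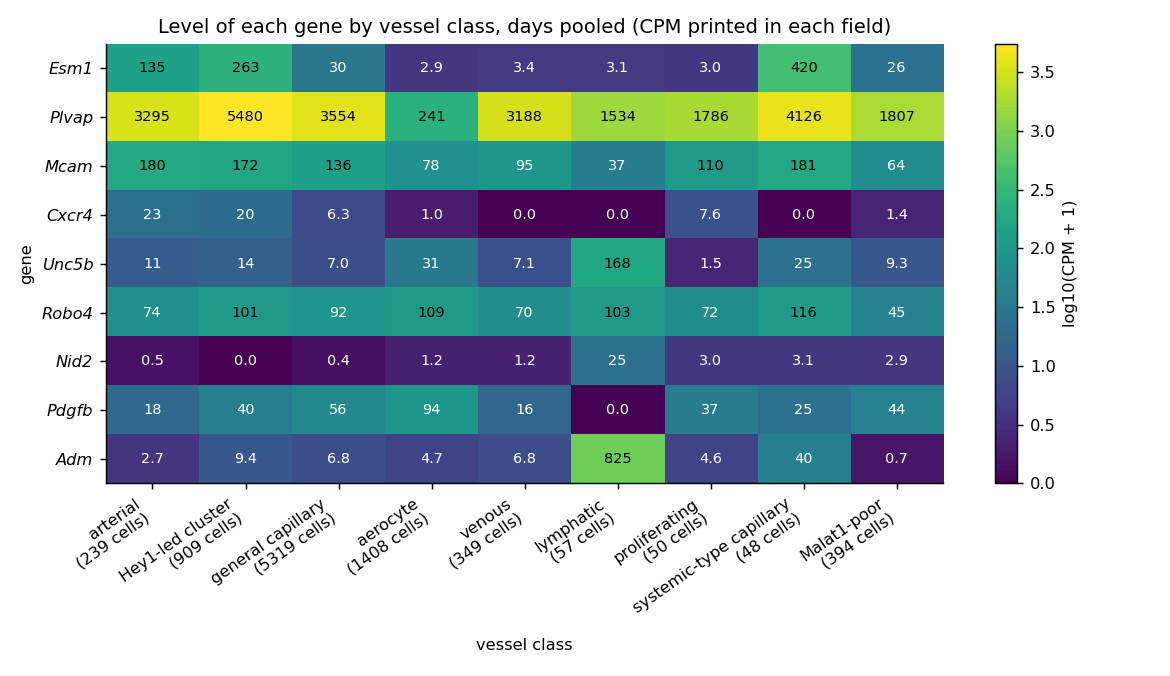
Level of the 9 genes (CPM, printed in each field, colour on a log10 scale) in 9 classes of EC, days pooled. Esm1 is highest in systemic-type capillary (420 CPM, and 151.5 without 2 cells), Hey1-led and arterial cells, Unc5b and Adm in lymphatic cells, and Pdgfb in aerocytes.

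Cxcr4, like Esm1, was higher in arterial and Hey1-led cells than in general capillary cells. It stood at 22.9 CPM in arterial cells (10.5 to 40.1), 20.2 in the Hey1-led cluster (13.9 to 28.9), 6.29 in general capillary cells and 0.971 in aerocytes. It had no UMI in venous, lymphatic or systemic-type capillary cells. The ratio to general capillary cells was 3.64 (1.57 to 6.88) in arterial cells and 3.22 in the Hey1-led cluster. Its ligand Cxcl12 was at 1723 CPM in arterial cells, 783.4 in the Hey1-led cluster, 392.6 in general capillary cells and 29.3 in aerocytes.

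Plvap was lowest in aerocytes, at 241.3 CPM, 0.0679 times its level in general capillary cells (3554 CPM). It was highest in the Hey1-led cluster at 5480 CPM. Mcam stood at 180.9, 179.9 and 171.7 CPM in systemic-type capillary, arterial and Hey1-led cells, at 135.9 in general capillary cells and at 77.7 in aerocytes. Robo4 ranged from 44.9 CPM in Malat1-poor cells to 116.5 in systemic-type capillary cells, and every pair of neighbours in that order overlapped. In aerocytes it was at 108.8 CPM, 1.18 times its general capillary level (1.05 to 1.34).

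Pdgfb, Unc5b and Adm had other main sites. Pdgfb was highest in aerocytes at 93.6 CPM (84.3 to 103.9), 1.66 times its general capillary level (1.45 to 1.91), and was at 18.0 CPM in arterial cells. Unc5b was at 168.1 CPM in lymphatic cells (95.3 to 292.4, from 13 of 57 cells) and at 31.3 in aerocytes (26.0 to 37.4), which held 52.2% of its UMIs. In arterial cells it stood at 11.5 CPM and in general capillary cells at 7.02. Adm was at 824.8 CPM in lymphatic cells (635.5 to 1045) and at 6.82 in general capillary cells, a ratio of 121.0 (84.2 to 176.1). Lymphatic cells were 57 of the 8773 EC and held 39.4% of Adm UMIs, from 12 cells. At d36 a single lymphatic cell held 79 of the 138 Adm UMIs. Nid2 had 8 UMIs in 3 lymphatic cells, a level of 24.9 CPM, and at most 3.07 CPM in the other classes.

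The shares of Esm1 UMIs by class differed between d15 and d22, with the Hey1-led cluster the largest on both days. At d22 the Hey1-led cluster held 62.2% of the day's Esm1 UMIs. Esm1 in that cluster was at 148.3, 152.7, 432.8 and 174.2 CPM from d0 to d36. The d22 level stood above the other 3, whose intervals overlapped, and the ratio to d0 was 2.92 (2.23 to 3.84). Without the 5 cells of this cluster with the most Esm1 UMIs at each day it was 3.01 at d22 (2.19 to 4.31), while the d15 ratio went from 1.03 to 0.467 (0.202 to 0.903) and the d36 ratio from 1.18 to 0.696 (0.351 to 1.28). The share of Hey1-led cells with an Esm1 UMI was 16.6, 9.39, 23.5 and 11.3% from d0 to d36, and 6.32, 3.98, 14.0 and 4.43% at 600 molecules a cell. General capillary cells were at 24.8 to 31.9 CPM at the 4 days, with a d22 ratio to d0 of 1.095 (0.826 to 1.47). Without their own 5 top cells of each day they were at 23.15 CPM at d22 and 14.7 at d0, a ratio of 1.58 (1.09 to 2.34). Both levels were under the 50 CPM needed to count.

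At d15 Esm1 UMIs were spread over Hey1-led cells (31.5%), systemic-type capillary cells (23.9%), arterial cells (22.1%) and general capillary cells (20.6%). Arterial cells stood at 65.9 CPM at d0, 374.0 at d15 and 119.6 at d22, which gave a d15 ratio of 5.68 (2.67 to 13.4). These levels came from 6, 9 and 15 cells with an Esm1 UMI. Without the 5 arterial cells of each day with the most Esm1 UMIs, the d15 ratio rested on 16 against 4 UMIs, and its interval ran from 0.916 to 455.6. At d36 there were 33 arterial cells with 11 Esm1 UMIs, too few for a level. Systemic-type capillary cells numbered 3, 15, 11 and 19 from d0 to d36, and 5 of the 15 at d15 held 109 Esm1 UMIs.

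**Figure D3:**
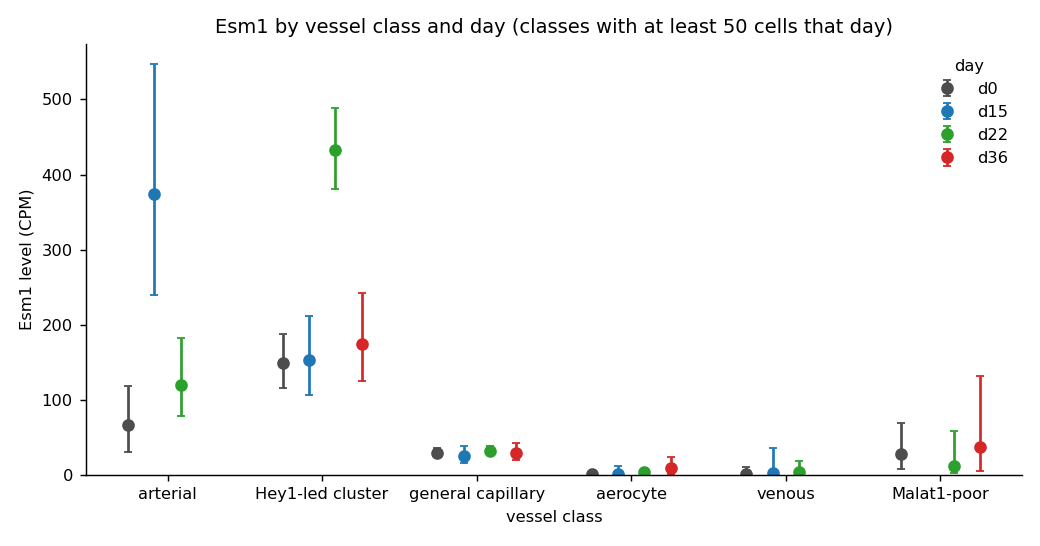
Esm1 level (CPM) by vessel class and day, for classes with at least 50 cells that day; bars are 95% counting intervals. The Hey1-led cluster is highest at d22 (432.8 CPM) and arterial cells at d15 (374.0 CPM, from 9 cells with a UMI), and general capillary cells lie at 24.8 to 31.9 CPM; all cells are kept here, and without the top cells of each class and day general capillary cells stood at 23.15 CPM at d22 and 14.7 at d0.

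Other members also varied between days within classes. Robo4 in aerocytes was at 138.5, 123.1, 85.1 and 87.2 CPM, with a d22 ratio to d0 of 0.614 (0.495 to 0.761). In Hey1-led cells it was at 148.8, 107.1, 69.3 and 74.3 CPM, with ratios of 0.465 at d22 (0.309 to 0.693) and 0.4995 at d36 (0.271 to 0.868), and in general capillary cells at 98.6, 115.3, 84.8 and 75.6. Plvap in aerocytes was at 291.9, 142.4, 199.4 and 336.9 CPM (d15 ratio 0.488, 0.342 to 0.662), while in general capillary cells it lay between 3033 and 3696. Mcam in general capillary cells was at 134.3, 189.2, 121.3 and 145.1 CPM (d15 ratio 1.41, 1.17 to 1.68). Unc5b in aerocytes was at 35.4, 46.1, 28.4 and 13.4 CPM, and its d36 ratio of 0.379 had an interval that held 1 (0.0990 to 1.02). Cxcr4 in the Hey1-led cluster was at 21.0, 12.7, 24.9 and 13.9 CPM.

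The 428 cells with an Esm1 UMI were then set against the 8345 without, day by day. They were 193 general capillary, 151 Hey1-led, 33 arterial, 26 aerocyte and 25 other cells, and their median cell held 7328 UMIs against 6384. Among 3636 genes measured, 2.94% were higher in the Esm1 cells and 2.78% lower. Of the 16 arterial markers 11 were measured, and 5 were higher and 1 lower. Gja5 was measured only through its level in the Esm1 cells. With 50 CPM asked over all EC, 4 of 10 were higher and 1 lower, where 1.98% of 3439 genes were higher and 2.91% lower. Gja5 was at 65.3 CPM in Esm1 cells and 9.07 in the others, the former 7.199-fold the latter (5.44 to 9.35), which held its direction at 4 of 4 days. Hey1 (2.75), the arterial ephrin Efnb2 (2.43), Plac8 (2.40) and Ltbp4 (2.03) were higher too. Sema3g (1.44), Edn1 (1.34), Mgp (1.25), Gja4 (1.18) and Fbln5 (1.10) did not pass 1.5. Mgp was above 1 at d22 alone (1.97, against 0.418, 0.564 and 0.284 at d0, d15 and d36). Sox17 was lower (0.638). Bmx had a ratio of 3.78 at a level too low to count. The median of the 11 was 0.53 on the log2 scale, against -0.01 over all genes measured.

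The tip cell genes divided. Of the 28 other tip cell genes, 19 were measured, and 4 were higher in Esm1 cells and 3 lower, with a median of -0.18. With 50 CPM asked over all EC it was 3 higher and 3 lower of 17, Igfbp3 being measured only through the Esm1 cells. Dll4 was at 354.4 against 150.6 CPM (2.35, 2.096 to 2.633), Vegfa had a ratio of 1.80 and Marcksl1 of 1.70. Igfbp3 had a ratio of 8.79, was higher at 2 of 4 days and stood at 1073 CPM in the systemic-type capillary cells. Apln was lower at 4 of 4 days (0.531, 0.395 to 0.693), as were the lymphatic growth factor Vegfc (0.527) and Cd34 (0.603) with the days combined. Kdr had a ratio of 0.669 (0.584 to 0.763) and Angpt2 of 1.32, neither past the rule. Apln and Kdr are aerocyte genes in these data, at 399.4 and 987.3 CPM there against 12.1 and 183.5 in general capillary cells. In Esm1 cells 9 of 12 aerocyte markers were lower as well. The higher genes also differed by class. In cells without Esm1, Dll4 was at 322.9 CPM in arterial, 291.3 in Hey1-led, 147.7 in general capillary cells and 130.8 in aerocytes. Vegfa was at 124.9, 131.5, 95.4 and 6.72 CPM in the same order, and Marcksl1 at 59.7, 70.2, 84.7 and 10.1.

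Among the 9 genes, Plvap and Cxcr4 went with Esm1. Plvap was at 5237 CPM in Esm1 cells and 2711 in the others (1.93, 1.88 to 1.99), and by day at 5118, 5696, 5175 and 5728 against 2572, 3004, 2760 and 2649. Cxcr4 was at 42.6 CPM in Esm1 cells and 4.30 in the rest (9.90, 6.84 to 13.5) and stayed under the 50 CPM needed to count. By day it was at 42.3, 49.7, 42.0 and 40.3 CPM in Esm1 cells and at 4.74, 4.86, 4.26 and 2.05 in the rest, higher in Esm1 cells at 4 of 4 days. At d15 and d36 there were only 55 and 52 Esm1 cells, and the interval is given for the days combined only. Mcam and Robo4 both had a ratio of 1.21 and Unc5b of 1.08, Nid2 of 1.63 and Adm of 0.487. Pdgfb was at a ratio of 0.693 (0.491 to 0.961). Read the other way, 52 of 154 cells with a Cxcr4 UMI also had an Esm1 UMI (33.8%, exact 95% interval 26.4 to 41.8), against 376 of 8619 without one (4.36%). At 600 molecules a cell the shares were 10 of 47 (21.3%) and 2.09%. Leukocyte markers, the other common source of Cxcr4, summed to 0.777 CPM in the Cxcr4 cells and 0.689 in the rest, and mural markers to 102 and 29.8 CPM. The part of mural RNA was not tested.

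**Figure D4:**
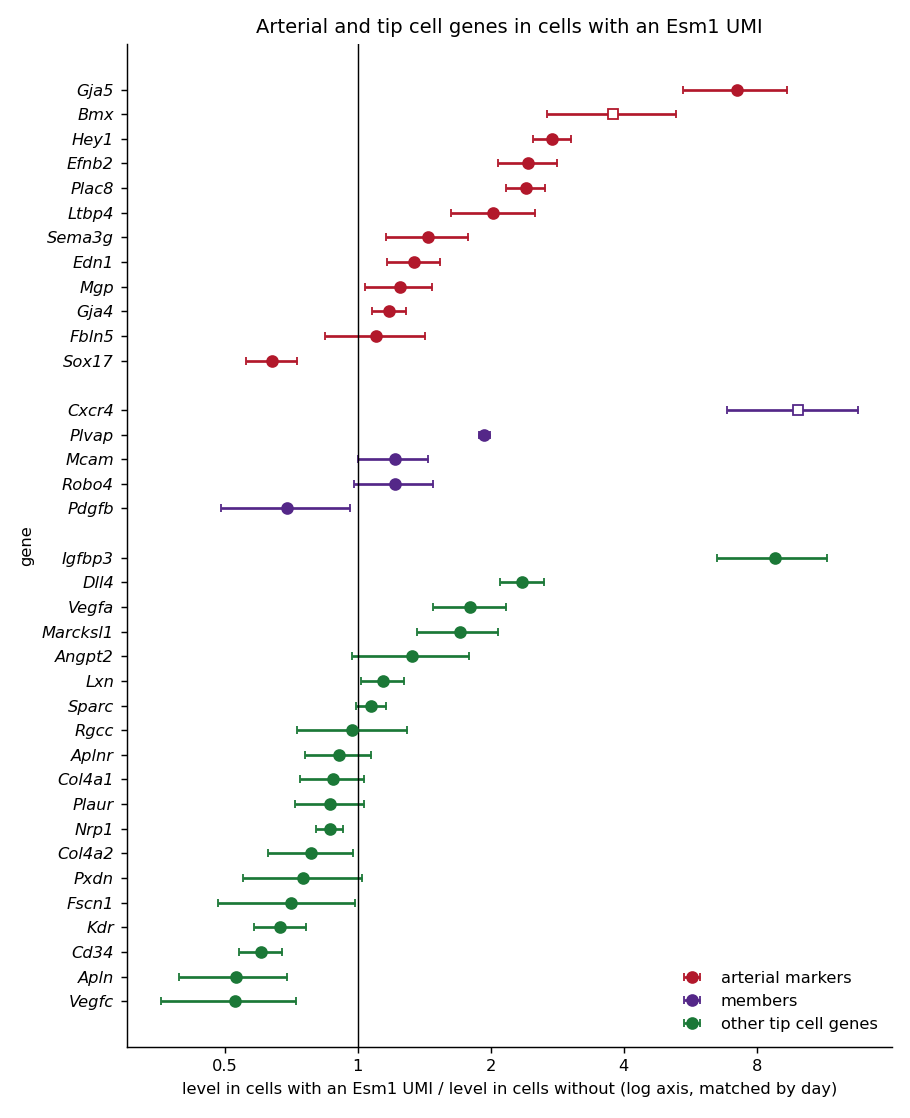
Ratio (log axis) of each measured arterial marker, member and other tip cell gene in the 428 cells with an Esm1 UMI to the cells without, matched by day, with 95% counting intervals; open squares are Cxcr4 and Bmx, under 50 CPM. Cxcr4 (9.90), Igfbp3 (8.79), Gja5 (7.199) and Dll4 (2.35) lie to the right, and Apln (0.531) and Vegfc (0.527) to the left.

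Among cells of the same cluster the median of the arterial list was near that of all genes (-0.01). However, the arterial markers were not left out when the clusters were made, while the members and the tip cell list were. Matching by cluster can thus even out arterial genes by construction, and the 2 lists cannot be weighed against each other here. When cells were matched by cluster and day, 2 of 11 arterial markers were higher and 2 lower, with a median of -0.03, and the ratio of Apln was 1.06. Of the other tip cell genes 18 were measured, with 2 higher, 0 lower and a median of 0.02. Over all 3616 genes measured in this matching, 1.05% were higher and 1.33% lower. The 2 higher arterial markers were Gja5 (2.55) and Hey1 (1.67). The 2 lower ones were Mgp (0.435, 0.363 to 0.514), a matrix protein of the artery wall, and Sox17 (0.566, 0.494 to 0.645). Gja5 was again measured only through its level in the Esm1 cells. The count with 50 CPM asked over all EC was made for the matching by day only. Cxcr4 was at a ratio of 5.91 (4.08 to 8.07), Dll4 at 1.77 and Plvap at 1.46. Within arterial, Hey1-led and general capillary cells taken one at a time, Cxcr4 was at ratios of 5.50, 4.66 and 8.41, Dll4 at 1.67, 1.69 and 2.096 and Plvap at 1.57, 1.34 and 1.55, with every interval above 1. Among aerocytes, with 26 Esm1 cells, Plvap was at 2.58 (1.93 to 3.36) and Dll4 at 1.09 (0.595 to 1.83), and Cxcr4 had no UMI in the Esm1 cells. Hey1 was at 1.87, 1.45 and 1.96 in the first 3 classes. Gja4, a connexin of arteries, was lower in the same 3 (0.741, 0.866 and 0.819, each interval below 1). In arterial cells the wall genes Mgp (0.403), Fbln5 (0.63), Fbln2 (0.404) and Htra1 (0.483) were below 1 as well, with intervals that left out 1. Efnb2 was at 1.10, 1.32 and 2.13, and its arterial interval held 1. Gja5 was at 6.51 in the Hey1-led cluster, 1.55 in arterial cells and 3.53 in general capillary cells, where its interval held 1 (0.905 to 8.50).

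**Figure D5:**
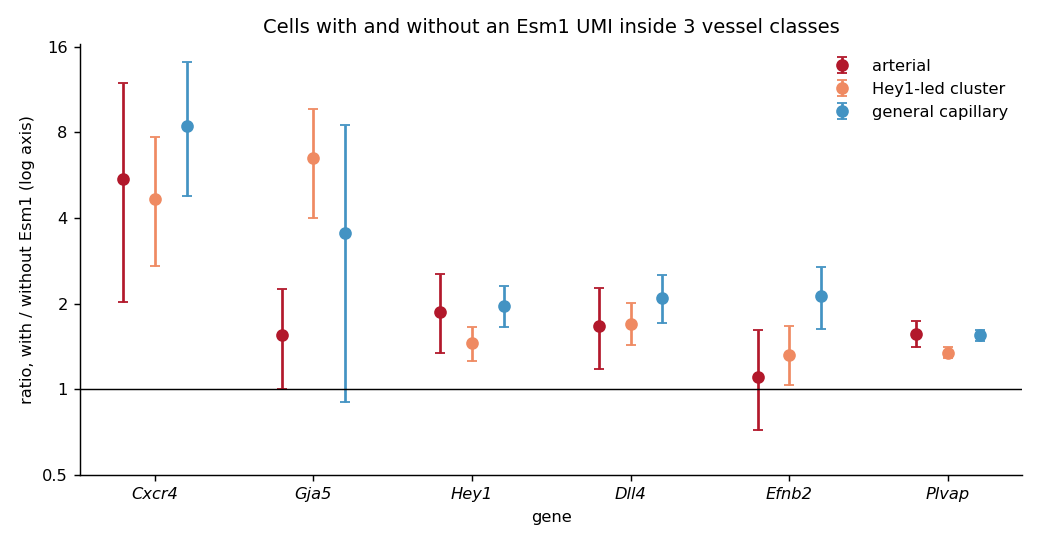
Ratio (log axis) of 6 genes in cells with an Esm1 UMI to cells without, inside arterial, Hey1-led and general capillary cells, with 95% counting intervals. Cxcr4 (5.50, 4.66 and 8.41), Dll4 and Plvap lie above 1 in all 3 classes, and Efnb2 is near 1 in arterial cells (1.10).

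Across the 21 sums of a class at a day with 50 cells or more, the genes whose level followed that of Esm1 most closely were Hey1, Cxcl12 and Sparcl1 (Pearson r of log2(CPM + 1) 0.91 each), Tax1bp1 (0.90), Sema3g and Pcsk5 (0.89 each). These points share libraries and depth, and the values are descriptions. Of the other members Mcam was at 0.67, Plvap at 0.66, Robo4 at -0.01 and Pdgfb at -0.33.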

How the data were processed

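Per the labels, the cells were female C57BL/6N mouse lung EC sorted by flow cytometry, made into 10x Chromium 3′ v2 libraries. Per the submitters' processing notes, Cell Ranger 2.1.1 and mm10 were used. The authors deposited 1 table of UMI counts per gene and cell, whose cell names give the day only, and each day was treated as 1 pooled sample. Plain counts had been planned for; because the values pile up on multiples of 4, CPM came from the deposited counts and exact Poisson or binomial 95% intervals from counts divided by 4. The intervals cover counting error only.

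Cells with under 300 genes or over 10% mitochondrial UMIs (19 cells), 24 doublet calls and 220 cells of other types or of mixed markers were left out. The doublet caller marked 0.266% of cells and cannot be taken to have worked. Between days 36 cell barcodes were shared. Counts were scaled, log-transformed and clustered with scanpy 1.11.5 (2000 variable genes less the 23 listed genes among them, 30 components, 15 neighbours, Leiden resolution 1.0). The thresholds for naming clusters, the divisor of 4, the matching by cluster, the level over all cells and the values without the top cells of a class were set after cluster results, Esm1 levels included, had been seen.

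The members and lists were chosen with earlier results of these data known. Named were the 9 genes, all arterial markers and partners, Apln, Angpt2, Dll4 and Kdr, the 3 highest and 3 lowest measured tip cell genes a day and the 6 genes most like Esm1; Vegfc, Cd34, Igfbp3, Marcksl1 and the class markers in passing were named after their values were seen. The comparison code was tested on simulated counts. Alternatives covered scaling (TMM from edgeR 4.0.16, median of ratios), depth, cell sets, clustering and thresholds.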

Additional observations from a re-analysis of the deposited data

How the results depend on the processing

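No paired analysis was possible because the cells carry no library or replicate number, and for the same reason no library was left out in turn. Shallow days limit rare genes: Cxcr4, Nid2, Unc5b and Adm rest on 1 to 390 UMIs a day.

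The count of members past the size rule at d15 against d0 (1, Esm1) became 0 with classes weighted to d0 shares and 0 without the 5 top cells. At d22 against d0 (1, Esm1) it became 0 without the 5 top cells, where the ratio was 2.13 but the level fell under 50 CPM, and 0 at a ratio of 2. At d36 against d0 (0) it became 3 with no filter on level (Esm1, Unc5b and Adm). At d36 against d15 (0) it became 1 in cells with 2600 UMIs or more (Esm1), 2 with cells thinned to 2500 UMIs (Esm1 and Robo4) and 2 with no filter (Unc5b and Adm). At d22 against d15 (1, Mcam) it became 0 under TMM, in cells with 2600 UMIs or more, with thinning, with counts collapsed to molecules (an alternative chosen after seeing the data) and at a ratio of 2, and it became 2 with no filter (Mcam and Nid2). With classes weighted the single gene there was Esm1.

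The share of Esm1 UMIs in arterial cells (7.95%, 239 cells) became 43.6% with all variable genes used, Esm1 included (373 cells). With each cell named by its own markers it became 37.6% (1122 cells). The Hey1-led share (51.5%) became 44.6% at resolution 2.0, and at 0.5 the cluster merged with general capillary cells. The share of both together (59.5%) became 8.59% at 0.5, 51.6% at 2.0 and 43.6% with all variable genes. Of 72 ratios of a class to general capillary cells, 57 stayed within the main interval, 13 moved out and 2 reversed, both Plvap in arterial cells (0.927), at 1.17 with all variable genes and 1.11 by own markers.

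The summed arterial list in Esm1 cells (ratio 1.48) was at 1.62 with 2 Esm1 UMIs or more and 1.59 without Gja4. Matched by cluster and day it was at 0.937, where 2 in place of 5 markers were higher. The arterial markers were not left out when the clusters were made, unlike the tip cell genes. The summed tip cell list (1.31) was at 1.44 with 2 Esm1 UMIs or more, 1.41 thinned, 0.957 without Plvap and 1.24 matched by cluster and day, and its genes higher (5) became 3 thinned and 2 matched. Of the 6 genes most like Esm1, 2 stayed with log2(CPM + 10) and 3 with cluster sums.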

Other observations

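Over all genes measured, those with the highest ratio in cells with an Esm1 UMI, matched by day, were Scgb3a1 (16.4), Igfbp3 (8.79), Gja5 (7.199), Mecom (5.25), Gpx8 (4.89), Ivns1abp (4.85), Psen2 (3.41), Apoe (3.26), Syt15 (3.12) and AU021092 (3.11). Of these, only Ivns1abp and Apoe reached 50 CPM in the cells without Esm1 (62.65 and 61.36 CPM). The others were measured only through their level in the Esm1 cells, so the order favours genes that are high there. Scgb3a1 is a secretoglobin best known from airway epithelium and Mecom a transcription factor of arterial endothelium. The epithelial marker list, which does not hold Scgb3a1, summed to 93.7, 30.6, 124 and 125 CPM in Esm1 cells from d0 to d36, against 83.4, 58.7, 142 and 132 CPM in all EC.

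In the arterial class the tumour line's list of 2 keratins summed to 63.8 CPM, of which Krt18 gave 63.2 and Krt8 0.545, against 0.493 CPM in the Hey1-led cluster and 1.49 CPM in general capillary cells. Mural markers summed to 51.3 CPM in arterial and 4.77 CPM in Hey1-led cells. In the 48 systemic-type capillary cells they summed to 659 CPM, where Tagln alone gave 638 CPM and Pdgfrb, Cspg4, Notch3, Rgs5 and Acta2 were at 0.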
